A study of Mus musculus with 12 samples.

Results

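The cholesterol genes of acute lymphoblastic leukaemia of T cells (T-ALL) in mice, from the enzymes that build the sterol to the proteins that sense, move, store and export it, were followed in 2 experiments on the chemokine receptor CXCR4. They were taken by symbol from a list of 31 genes covering cholesterol synthesis, its control by the SREBP transcription factors, and sterol transport, out of 22902 distinct symbols in each table of expression values. Under their own symbol, 30 of the 31 were listed, Msmo1 as Sc4mol, its older name. Tm7sf2, a sterol reductase, stood only in an entry joined with Vps51 and was not used. Hmgcs1, which makes the compound that is reduced to mevalonate, stood on 2 lines that were listed at 0 in all 12 libraries, so it could not be assessed. A mean of at least 1 FPKM (fragments counted per kilobase of a transcript, scaled to library size) was required for testing, and 28 members passed in each experiment. Abca1 fell short of it ex vivo and Idi1 in the tumours.

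All samples were leukaemias of the C57BL/6 strain that carried Notch1-deltaE, a Notch1 allele that signals without ligand. In the ex vivo experiment 3 samples of spleen-derived leukaemia cells received AMD3100, a small molecule that blocks CXCR4, and 3 received vehicle. In the other experiment 3 Cxcr4-/- primary tumours were set against 3 Cxcr4+/+ primary tumours. The labels describe culture on mitomycin-treated OP9 cells, a mouse bone marrow stromal line, with IL-7, a lymphocyte growth factor, at 5 ng/ml for every sample, and leave unclear if the tumours were ever in culture. The sources used here do not give the dose and duration of AMD3100, the driver of the Cxcr4 deletion, the age of the animals or the animal behind each sample. The p-values therefore rest on sample-to-sample spread that may be technical.

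Cholesterol is built from acetyl-CoA through mevalonate, isoprenoids, squalene and lanosterol. When sterols run low in the endoplasmic reticulum, the escort protein SCAP carries SREBP proteins to the Golgi, where they are cut and released to switch on most of the enzyme genes. When sterols are plentiful, INSIG proteins hold SCAP back, and oxysterols activate LXR receptors, which switch on sterol export. Proliferating lymphocytes depend on this synthesis for new membranes.

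SREBP proteins act together with NF-Y, which binds the CCAAT box, so promoters were read for both kinds of site. RefSeq sequences (build GRCm38.p6) covering 250 bases before to 50 bases after a gene start were held for 25 of the 31 members, with 33 starts in all. None was held for Fdps, Fdft1, Sqle, Abcg1, Npc1 and Stard4, so their promoters were not read. All of these were called in the paired fit given below. Of these 33 promoters, 66.7% contained the letters CCAAT on either strand, against 37.4% of all 32851 promoters of the table and 38.2% of the 9646 promoters of genes tested ex vivo. The E-box CACGTG stood in 21.2% of the members' promoters, against 7.15% of all promoters and 10.4% of those of tested genes, and the GC box GGGCGG in 81.8%, against 35.7% of all promoters and 64.1% of those of tested genes. All motifs were searched on both strands. The strict sterol regulatory element TCACNCCAC stood in 1 member promoter, that of Hmgcs1, and in 1.24% of all promoters. The windows of 6 members are printed because the enzymes Pmvk, Mvk, Lss and Nsdhl and the sensor gene Insig1 were among those called lower with AMD3100, while Hsd17b7 was the 1 enzyme whose mean was not lower. Capitals mark CCAAT or its reverse complement ATTGG. Matches are a description of these letters and not of bound sites.
Pmvk (chr3:89454291-89454590, plus strand): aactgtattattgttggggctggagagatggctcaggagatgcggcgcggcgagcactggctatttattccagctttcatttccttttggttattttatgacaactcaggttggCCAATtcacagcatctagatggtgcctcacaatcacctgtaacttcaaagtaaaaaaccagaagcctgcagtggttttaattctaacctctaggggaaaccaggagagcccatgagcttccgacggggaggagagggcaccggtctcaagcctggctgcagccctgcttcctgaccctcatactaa
Mvk (chr5:114444019-114444318, plus strand): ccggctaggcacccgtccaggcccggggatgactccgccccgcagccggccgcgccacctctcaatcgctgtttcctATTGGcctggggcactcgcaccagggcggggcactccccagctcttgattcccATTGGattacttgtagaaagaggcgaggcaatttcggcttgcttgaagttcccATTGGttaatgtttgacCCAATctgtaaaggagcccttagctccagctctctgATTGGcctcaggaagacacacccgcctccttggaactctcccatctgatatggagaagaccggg
Lss (chr10:76531355-76531654, plus strand): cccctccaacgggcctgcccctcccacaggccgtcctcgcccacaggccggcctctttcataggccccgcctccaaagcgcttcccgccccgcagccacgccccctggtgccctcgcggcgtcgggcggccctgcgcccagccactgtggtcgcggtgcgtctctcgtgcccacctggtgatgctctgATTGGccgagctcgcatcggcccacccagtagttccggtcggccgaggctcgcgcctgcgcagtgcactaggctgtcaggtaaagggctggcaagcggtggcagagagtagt
Nsdhl (chrX:72918271-72918570, plus strand): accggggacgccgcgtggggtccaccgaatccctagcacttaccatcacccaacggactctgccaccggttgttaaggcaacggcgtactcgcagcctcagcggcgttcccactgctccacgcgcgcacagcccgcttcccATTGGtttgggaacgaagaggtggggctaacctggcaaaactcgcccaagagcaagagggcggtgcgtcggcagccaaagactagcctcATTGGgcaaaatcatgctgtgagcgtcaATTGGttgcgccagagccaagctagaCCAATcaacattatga
Insig1 (chr5:28071162-28071461, plus strand): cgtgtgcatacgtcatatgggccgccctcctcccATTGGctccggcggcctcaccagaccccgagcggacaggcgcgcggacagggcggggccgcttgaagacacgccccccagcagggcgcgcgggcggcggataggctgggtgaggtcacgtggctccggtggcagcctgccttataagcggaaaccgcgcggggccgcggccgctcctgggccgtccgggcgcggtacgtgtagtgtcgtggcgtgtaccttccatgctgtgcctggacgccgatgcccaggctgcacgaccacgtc
Hsd17b7 (chr1:169969156-169969455, minus strand): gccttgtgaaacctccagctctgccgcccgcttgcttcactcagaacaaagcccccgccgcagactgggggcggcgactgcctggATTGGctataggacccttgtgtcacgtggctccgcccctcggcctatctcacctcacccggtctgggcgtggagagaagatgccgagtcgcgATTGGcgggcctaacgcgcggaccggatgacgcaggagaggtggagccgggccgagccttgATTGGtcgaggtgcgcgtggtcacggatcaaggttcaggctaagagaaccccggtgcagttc
The window of Mvk held 5 such boxes, that of Nsdhl 4, and those of Pmvk (the first of its 2 listed starts), Lss and Insig1 held 1 each. The second Pmvk start held 0, as did the window of Acat2, an enzyme also called lower and not printed here. The window of Hsd17b7 held 3.

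Summed FPKM per library ran from 444803 to 466957 with AMD3100, from 445379 to 480468 with vehicle, from 388506 to 581159 in the Cxcr4-/- tumours and from 368118 to 550580 in the Cxcr4+/+ tumours. Steps between low values gave depths relative to the first vehicle library of 1.06, 1.25 and 1.21 with AMD3100 and of 0.907 and 0.757 for vehicle 2 and 3. Too few low values were shared with wild-type tumour 1, at most 22 in another tumour, to estimate depths there. T cell markers (8 of 8 listed, among them Cd3e and Lck) summed to 4757 to 4998 FPKM with AMD3100 and 5166 to 5430 FPKM with vehicle. The stromal list, which would show OP9 RNA, summed to 34.1, 20.8 and 15.7 FPKM with AMD3100 and to 24.9, 44.1 and 11.6 FPKM with vehicle. Macrophage markers reached at most 2.88 FPKM in sum ex vivo, with Csf1r, C1qa, C1qb and C1qc listed at 0. In the tumours the T cell markers summed to 1873, 4074 and 3274 FPKM in knockout tumours 5, 7 and 8 and to 5178, 1391 and 1786 FPKM in wild-type tumours 1, 2 and 4. Erythroid markers, in the same order, summed to 86613, 8439 and 17828 FPKM in knockout tumours and to 3540, 16938 and 102055 FPKM in wild-type tumours. Neutrophil markers summed to 65.6, 315 and 160 FPKM in knockout tumours and to 208, 3082 and 5.52 FPKM in wild-type tumours. In bulk RNA, fewer cells of a type and less RNA per cell cannot be told apart.

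With AMD3100, transcripts of 11 of the 16 synthesis enzymes tested were lower, all 4 of the mevalonate steps, 3 of 4 from isoprenoids to squalene and 4 of 8 from the formation of lanosterol onwards, when same-numbered samples were paired. The sterol sensor gene Insig1, the exporter gene Abcg1 and the sterol carrier gene Stard4 were lower in the same fit. In all, 15 of the 28 tested members fell and 1, Npc1, rose (limma, Benjamini-Hochberg adjusted p under 0.05 over all genes). The same fit called 19.9% of all 10245 genes, 9.92% lower and 9.96% higher. At an unadjusted p under 0.05 in that fit there were 21 members and 39% of all genes. The log2 change was below 0 for 22 members and for 49.7% of all genes. The median log2 change of the members was -0.53, where that of all genes was 0.0022. Without pairing, limma called none of the 28 members, where it called 0.127% of all genes, 0.0781% lower and 0.0488% higher, although 16 members had an unadjusted p under 0.05, as did 21.5% of all genes. The AMD3100 and vehicle values did not overlap for 17 members, all lower with AMD3100, against 15.8% of all genes lower and 13.1% higher.

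**Figure D1:**
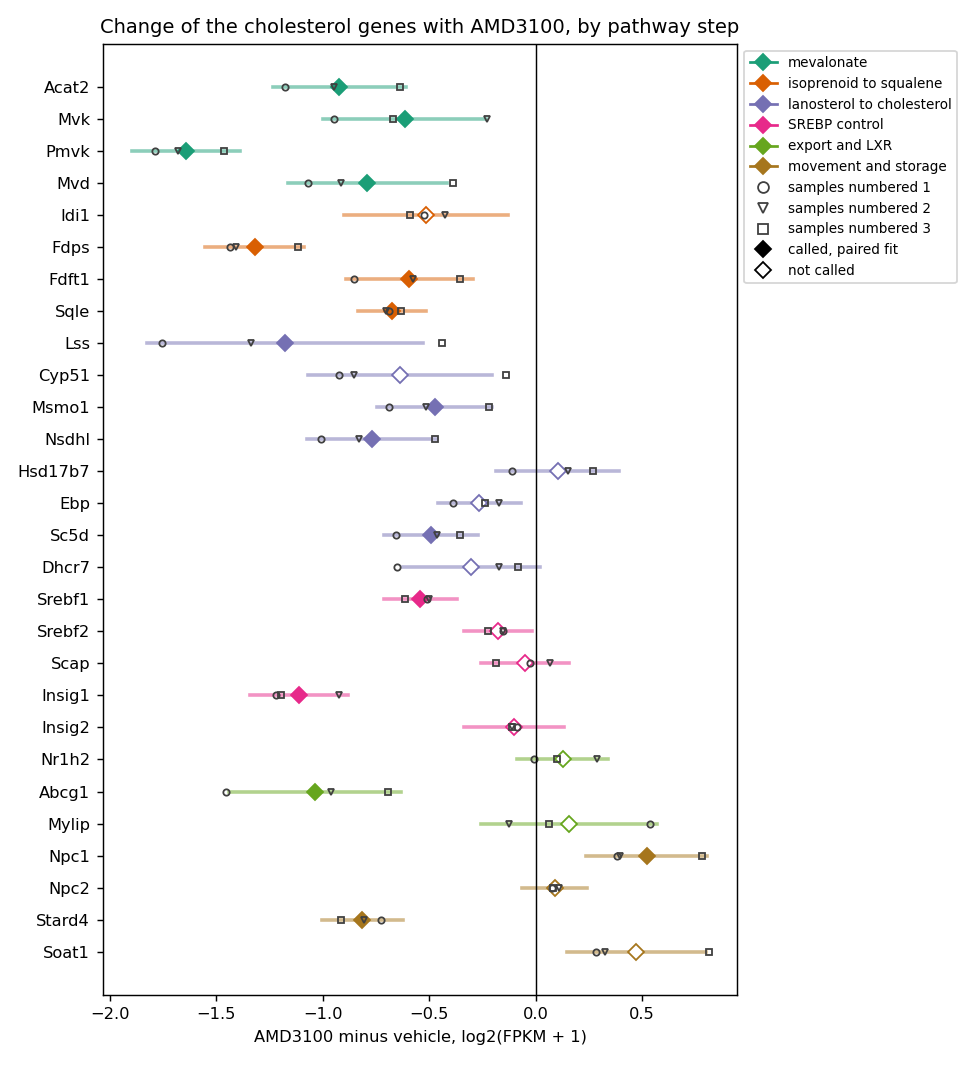
Difference between AMD3100 and vehicle in log2(FPKM + 1) for the 28 tested members, ordered by pathway step, with diamonds for the mean, bars for the 95% confidence interval of the paired fit and open symbols for each same-numbered pair. All 4 mevalonate enzymes lie left of 0 in every pair, while Npc1 and Soat1 lie right of it.

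Enzymes of the mevalonate steps included the largest change of any member. Pmvk, the kinase that adds the second phosphate to mevalonate, was at 7.90, 5.08 and 7.75 FPKM with AMD3100 and at 29.7, 18.5 and 23.2 FPKM with vehicle. Every AMD3100 value lay below every vehicle value, and the log2 change was -1.65 (paired SE 0.099, limma adjusted p = 0.0166; unpaired SE 0.23, adjusted p = 0.0544). Each log2 change is a difference of log2(FPKM + 1), so for genes near 1 FPKM it is smaller than the ratio of the FPKM values. Acat2, the cytosolic thiolase that opens the pathway, was at 13.6, 14.6 and 12.9 FPKM with AMD3100 and at 32.0, 29.1 and 20.6 FPKM with vehicle (log2 -0.92). Mvd, which makes the first isoprenoid unit, was at 19.4, 21.6 and 20.6 FPKM with AMD3100 and at 41.7, 41.7 and 27.2 FPKM with vehicle (log2 -0.79). Its treated values were close to each other, while vehicle 3 stood well below the other two. Mvk, the mevalonate kinase, was at 14.2, 16.3 and 12.8 FPKM with AMD3100 and at 28.4, 19.3 and 21.0 FPKM with vehicle (log2 -0.62). All 4 mevalonate enzymes measured fell in the paired fit, and the groups overlapped for none of them.

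From isoprenoids to squalene, 3 of the 4 enzymes fell in the paired fit. Fdps, which joins isoprenoid units to farnesyl diphosphate, the branch point to protein prenylation, was at 24.2, 27.9 and 15.3 FPKM with AMD3100 and at 67.1, 75.7 and 34.3 FPKM with vehicle. Sample 3 was lowest in both groups, and the difference in each pair was alike, at -1.44, -1.41 and -1.12 on the log2 scale (mean -1.32, paired SE 0.090, limma adjusted p = 0.0169; unpaired SE 0.36, adjusted p = 0.110). Sqle, the squalene epoxidase that is a second control point of the route, was at 44.1, 37.4 and 30.4 FPKM with AMD3100 and at 71.6, 61.5 and 47.8 FPKM with vehicle. It differed by -0.69, -0.70 and -0.64 in the 3 pairs, the most even response among the enzymes that fell. Fdft1, the squalene synthase, was at 14.5, 16.1 and 11.7 FPKM with AMD3100 and at 27.1, 24.6 and 15.2 FPKM with vehicle (log2 -0.59), where vehicle 3 lay within the AMD3100 range. Idi1, the isomerase of the isoprenoid units, was close to the minimum at 1.33, 1.63 and 1.04 FPKM with AMD3100 and at 2.35, 2.53 and 2.07 FPKM with vehicle. Its groups did not overlap, but it was not called (log2 -0.51, paired adjusted p = 0.0708 in limma).

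From the formation of lanosterol onwards, 4 of the 8 enzymes tested fell. Lss, the cyclase that forms lanosterol, was at 13.1, 13.7 and 17.0 FPKM with AMD3100 and at 46.7, 36.0 and 23.5 FPKM with vehicle. The order of the samples was turned round between the groups, so that the 3 pairs differed by -1.76, -1.34 and -0.44 (mean -1.18, paired SE 0.25, limma adjusted p = 0.0366; unpaired adjusted p = 0.0769). Nsdhl, a dehydrogenase that removes methyl groups from the sterol ring, was at 20.6, 21.3 and 17.8 FPKM with AMD3100 and at 42.5, 38.7 and 25.1 FPKM with vehicle (log2 -0.77). Msmo1, the methylsterol oxidase that works with it, was at 51.4, 49.3 and 33.8 FPKM with AMD3100 and at 83.5, 71.1 and 39.5 FPKM with vehicle (log2 -0.48). Its groups overlapped through vehicle 3. Sc5d, a sterol desaturase, was at 27.2, 23.2 and 24.9 FPKM with AMD3100 and at 43.5, 32.4 and 32.2 FPKM with vehicle (log2 -0.49). The other 4 were not called. Cyp51, the lanosterol demethylase and the most abundant of the enzymes with vehicle, was at 72.4, 55.4 and 52.7 FPKM with AMD3100 and at 138, 101 and 58.1 FPKM with vehicle (log2 -0.64, paired adjusted p = 0.0567 in limma). Pair 3 differed by -0.14, against -0.92 and -0.85 in pairs 1 and 2. Ebp and Dhcr7, which act near the end of the route, had log2 changes of -0.27 and -0.30, with 95% confidence intervals in the paired fit of -0.46 to -0.072 and of -0.63 to 0.021. Hsd17b7, a ketosteroid reductase, averaged 9.38 ± 0.715 FPKM with AMD3100 and 8.70 ± 1.10 FPKM with vehicle (SD, n = 3 each, as in all means given here), with a paired interval of -0.19 to 0.39.

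Over the 16 enzymes tested, 11 fell and none rose in the paired fit, with a median log2 change of -0.63. The medians of the 3 steps were -0.86 for the mevalonate steps, -0.63 from isoprenoids to squalene and -0.48 from the formation of lanosterol onwards. By pair, the median over the enzymes was -0.89 for the samples numbered 1, -0.64 for those numbered 2 and -0.41 for those numbered 3, where the medians over all genes were 0.016, 0 and -0.0015. Vehicle 3 was the lowest vehicle library for 12 of the 16 enzymes. Pair 3 had the highest signed log2 difference for 13 of them. That was the smallest fall of the pairs, except for Hsd17b7, where it was a rise of 0.27. Neither count was taken over all genes. Vehicle 3 was also the library with the lowest relative depth and the lowest stromal marker sum, and the part of either in these values was not tested.

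**Figure D2:**
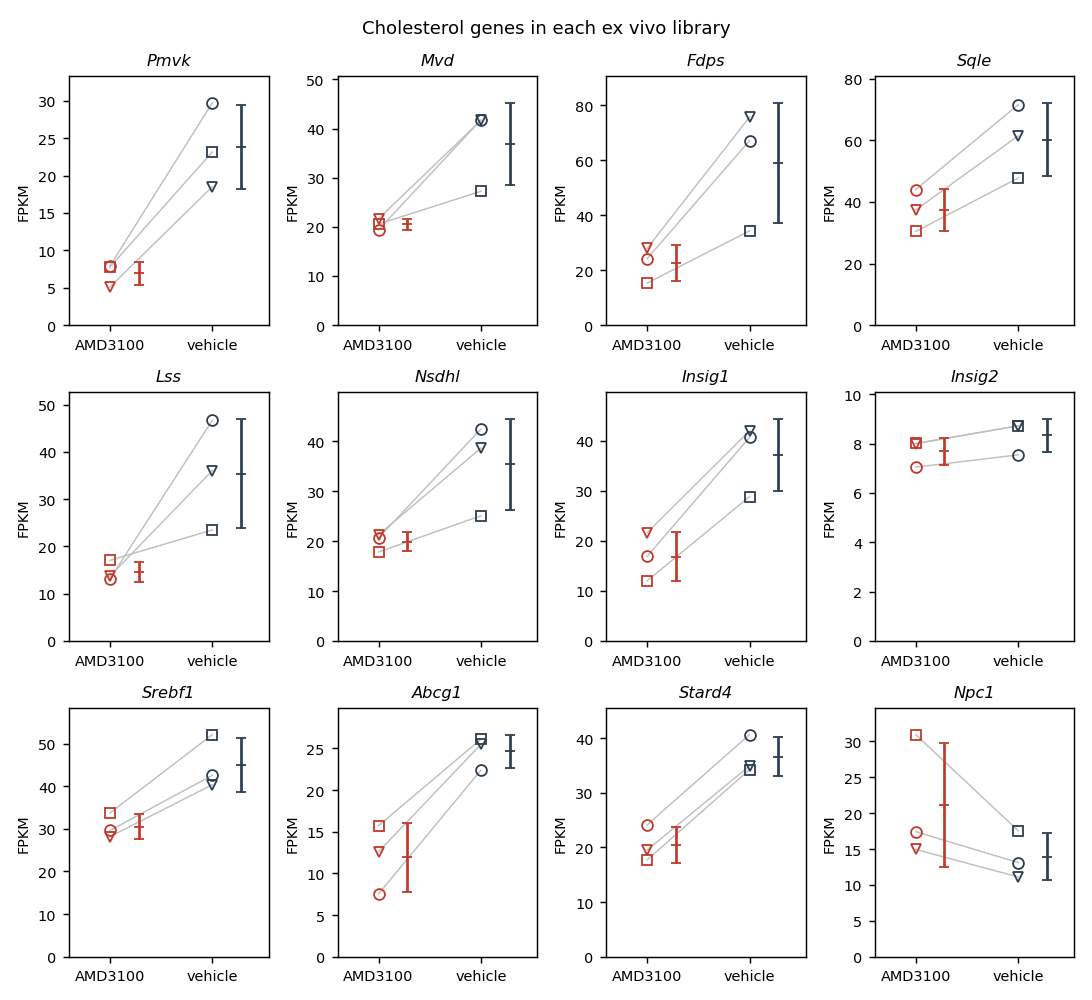
FPKM of 12 members in each ex vivo library, AMD3100 on the left and vehicle on the right, with grey lines joining same-numbered samples (circle 1, triangle 2, square 3) and bars for the mean ± SD (n = 3). Pmvk stood at 5.08 to 7.90 FPKM with AMD3100 and 18.5 to 29.7 FPKM with vehicle, while Insig2 stayed between 7.05 and 8.73 FPKM in all libraries.

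Of the 5 genes of SREBP control, Insig1 and Srebf1 fell, and neither Srebf2, Scap nor Insig2 was called. Insig1, itself a classic SREBP target, was at 16.9, 21.6 and 12.0 FPKM with AMD3100 and at 40.7, 42.0 and 28.8 FPKM with vehicle (log2 -1.11, paired SE 0.090, limma adjusted p = 0.0184; unpaired adjusted p = 0.0774). Insig2, which does the same job but is not known as an SREBP target, averaged 7.69 ± 0.551 FPKM with AMD3100 and 8.33 ± 0.681 FPKM with vehicle (log2 -0.10, paired 95% interval -0.34 to 0.13). Srebf1, which encodes the SREBP form tied to fatty acid synthesis, was at 29.6, 28.2 and 33.7 FPKM with AMD3100 and at 42.5, 40.3 and 52.1 FPKM with vehicle, and differed by -0.51, -0.50 and -0.61 in the 3 pairs. Srebf2, the form that drives cholesterol synthesis, was at 128, 132 and 117 FPKM with AMD3100 and at 143, 147 and 137 FPKM with vehicle. Its groups did not overlap, but the difference was small and not called (log2 -0.18, paired interval -0.34 to -0.019, adjusted p = 0.102 in limma). Scap averaged 27.9 ± 3.70 FPKM with AMD3100 and 28.8 ± 1.82 FPKM with vehicle.

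Among the export genes, Abcg1 fell and the others were not called. Abcg1, a transporter that passes cholesterol to lipoproteins, was at 7.54, 12.6 and 15.7 FPKM with AMD3100 and at 22.4, 25.5 and 26.1 FPKM with vehicle (log2 -1.04, paired SE 0.16, limma adjusted p = 0.0219; unpaired adjusted p = 0.0900). Mylip, a ubiquitin ligase for lipoprotein receptors and like Abcg1 a target of LXR, averaged 5.88 ± 0.611 FPKM with AMD3100 and 5.20 ± 0.899 FPKM with vehicle (log2 0.16, paired interval -0.26 to 0.57). Nr1h2, the LXR form found in most tissues, averaged 39.8 ± 3.05 FPKM with AMD3100 and 36.4 ± 2.48 FPKM with vehicle. Abca1, the other main exporter, was at 0.011 to 0.034 FPKM with AMD3100 and at 0.055 to 0.083 FPKM with vehicle, too low to test.

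The genes of movement and storage went both ways. Stard4, a soluble carrier of cholesterol between membranes, was at 24.1, 19.5 and 17.7 FPKM with AMD3100 and at 40.6, 34.9 and 34.3 FPKM with vehicle (log2 -0.82, paired SE 0.074, limma adjusted p = 0.0191; unpaired adjusted p = 0.0614). Npc1, the membrane protein that lets cholesterol out of lysosomes, was at 17.4, 14.9 and 30.9 FPKM with AMD3100 and at 13.1, 11.1 and 17.6 FPKM with vehicle. The groups overlapped, but it was higher in all 3 pairs and rose in the paired fit (log2 0.52, paired SE 0.11, limma adjusted p = 0.0361; unpaired adjusted p = 0.387). Soat1, which esterifies cholesterol for storage, was at 17.3, 17.8 and 55.5 FPKM with AMD3100 and at 14.1, 14.0 and 31.2 FPKM with vehicle. It too was higher in each pair but was not called (log2 0.47, paired adjusted p = 0.0589 in limma), and sample 3 stood far above the others in both groups. Npc2, the soluble partner of NPC1, averaged 107 ± 6.25 FPKM with AMD3100 and 101 ± 6.73 FPKM with vehicle.

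No member was called in the paired fit without the samples numbered 1, where 4 of all 10245 genes were called, or without those numbered 2, where 6 were. The median log2 change of the members was -0.46 and -0.54 in these fits. Without the samples numbered 3, 14 members fell, 13 of them among the calls from all pairs, and none rose. That fit called 559 of all 10245 genes, 288 lower and 271 higher. With the pairs corrected for the length of transcripts, 14 members fell and none rose, where 847 of 10079 genes were lower and 837 higher, with Cyp51 called (log2 -0.73) and Mvk (log2 -0.52), Msmo1 (log2 -0.37) and Npc1 (log2 0.36) not called.

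Of 48 other genes of the pathway, 41 were tested ex vivo, and in the paired fit 8 fell and 2 rose, with a median log2 change of -0.063. That fit called 9.92% of all genes lower and 9.96% higher. Without pairing limma called none of them. Scarb1, a receptor that takes up cholesterol from high-density lipoprotein, was at 19.0, 15.2 and 7.78 FPKM with AMD3100 and at 35.1, 22.1 and 15.5 FPKM with vehicle (log2 -0.76). Tmem97, a sterol-binding membrane protein of the SREBP programme, had a log2 change of -0.59. In the isoprenoid branches 2 of the 11 genes tested were called, Pdss1 (log2 -0.73) and Coq2 (log2 -0.43), both for coenzyme Q, which fell. Pdss2, also for coenzyme Q, was not called (log2 0.14). Ggps1, which makes the prenyl group for small GTPases, had a log2 change of -0.0041. The 2 that rose were Mbtps2 (log2 0.34), a protease that cuts SREBP, and Lipa (log2 0.41), the lysosomal lipase that frees cholesterol from its esters. They, Pdss2 and Ggps1 were named after their values were seen.

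In the primary tumours, limma called none of the 28 tested members between Cxcr4-/- and Cxcr4+/+, and it called 0.0372% of all 10741 genes, 0.0186% lower and 0.0186% higher. At an unadjusted p under 0.05 there was 1 member, Nsdhl, where 4.28% of all genes passed. The knockout itself showed in Cxcr4, at 23.2, 78.9 and 21.9 FPKM in knockout tumours 5, 7 and 8 and at 241, 155 and 206 FPKM in wild-type tumours 1, 2 and 4. Even this difference was not called (log2 -2.49, SE 0.51, adjusted p = 0.986 in limma). Ex vivo, where the receptor is blocked and not deleted, Cxcr4 was at 183, 136 and 212 FPKM with AMD3100 and at 183, 112 and 141 FPKM with vehicle, and was not called. Of the 28 log2 changes, 15 were below 0 and 13 above, while 52.3% of all genes were below 0, with a median of -0.052 beside -0.026 for all genes.

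**Figure D3:**
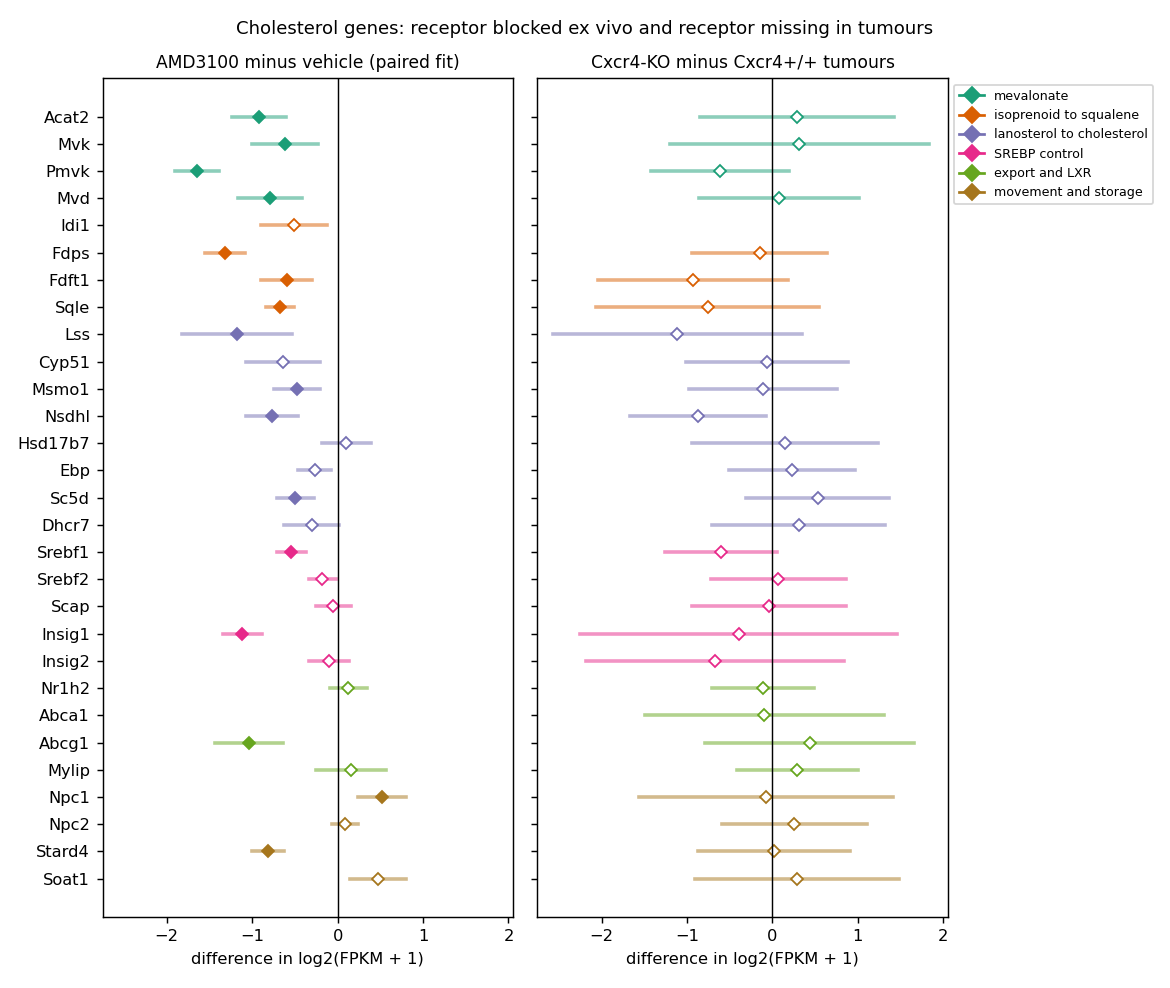
Difference in log2(FPKM + 1) for each member with its 95% confidence interval, AMD3100 minus vehicle on the left (paired fit) and Cxcr4-/- minus Cxcr4+/+ tumours on the right, filled where called and coloured by pathway step. Every tumour interval but that of Nsdhl spans 0. The tumour intervals, from a fit without pairing, are wider than those of the paired fit ex vivo, so their widths are not alike in kind.

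The tumour groups did not overlap for 4 members, all lower in the knockout, where 5.2% of all genes were lower without overlap and 4.01% higher. Nsdhl was at 7.88, 5.31 and 7.16 FPKM in knockout tumours and at 14.9, 10.3 and 14.5 FPKM in wild-type tumours (log2 -0.87, 95% interval -1.67 to -0.074, limma adjusted p = 0.986). Srebf1 was at 19.2, 20.4 and 15.7 FPKM in knockout tumours and at 31.5, 30.9 and 23.5 FPKM in wild-type tumours (log2 -0.60, interval -1.26 to 0.054). Pmvk was at 12.0, 7.45 and 12.9 FPKM in knockout tumours and at 16.2, 20.5 and 13.9 FPKM in wild-type tumours (log2 -0.62, interval -1.42 to 0.19). Lss was at 3.64, 3.53 and 0.203 FPKM in knockout tumours and at 6.58, 4.18 and 5.49 FPKM in wild-type tumours (log2 -1.11, interval -2.56 to 0.34). Knockout tumour 8 carried much of the Lss difference, which was -0.47 without it, and that library had the most lines listed at 0, 13231 of 23174.

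For the other members the tumours of each group spread over one another. Fdft1 was at 7.10, 3.31 and 2.66 FPKM in knockout tumours and at 10.7, 5.40 and 10.9 FPKM in wild-type tumours (log2 -0.93, interval -2.05 to 0.18). All 3 enzymes tested from isoprenoids to squalene were below 0, with a median of -0.76. Over all 15 enzymes tested, 8 were below 0 and 7 above, where 52.3% of all genes were below 0. Insig1 was at 8.96, 10.7 and 0.482 FPKM in knockout tumours and at 7.01, 6.21 and 5.79 FPKM in wild-type tumours, and its log2 change of -0.40 turned to 0.56 without knockout tumour 8. Fdps averaged 9.66 ± 1.67 FPKM in knockout tumours and 10.9 ± 2.38 FPKM in wild-type tumours (log2 -0.15, interval -0.94 to 0.64). Ex vivo its log2 change was -1.32, with an interval without pairing of -2.20 to -0.44, which overlaps that of the tumours. The paired ex vivo interval, -1.55 to -1.09, does not overlap it. Fdps was the only called member of which this held. For Pmvk, the paired ex vivo interval of -1.90 to -1.39 overlaps that of the tumours, -1.42 to 0.19. The difference between the experiments was not tested. Sqle was at 16.9, 4.14 and 5.20 FPKM in knockout tumours and at 8.44, 14.9 and 17.4 FPKM in wild-type tumours. Abcg1 was at 15.1, 30.6 and 19.0 FPKM in knockout tumours and at 31.9, 12.2 and 8.52 FPKM in wild-type tumours. Npc1 was at 7.76, 16.3 and 11.8 FPKM in knockout tumours and at 31.5, 10.6 and 5.06 FPKM in wild-type tumours. Both stood highest in wild-type tumour 1 and then in knockout tumour 7, the tumours with the highest T cell marker sums, 5178 and 4074 FPKM, and the part of T cell RNA in these values was not tested. Of the 48 other pathway genes, 42 were tested in the tumours and limma called none, with 1, Tmem97, at an unadjusted p under 0.05 (log2 -1.89). It was listed at 0 in knockout tumour 8, without which its log2 change was -1.08.

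**Figure D4:**
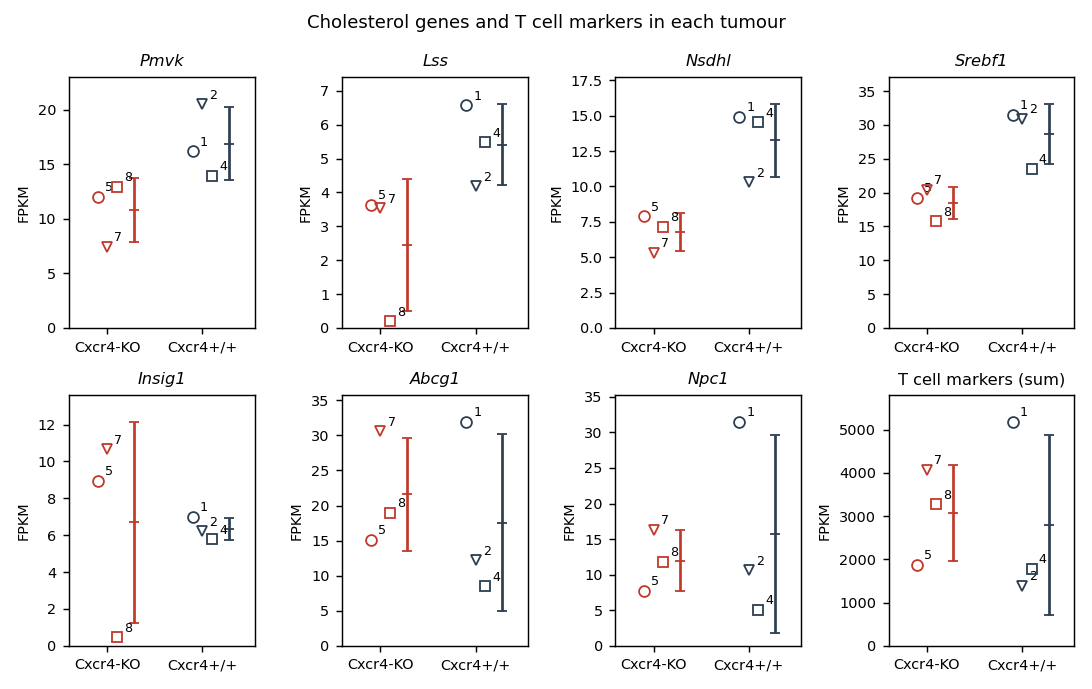
FPKM of 7 members and the summed FPKM of 8 T cell markers in each tumour, knockout on the left and wild type on the right, with the tumour number beside each point and bars for the mean ± SD (n = 3). Pmvk, Lss, Nsdhl and Srebf1 do not overlap between the groups, while Abcg1 and Npc1 are highest in wild-type tumour 1.

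Vehicle cells and wild-type tumours stand in tables normalised separately, and nothing was tested between them, so the values stand only side by side. Of the 16 enzymes, 15 had every vehicle value above every wild-type tumour value, where 30.5% of 10823 genes averaging 1 FPKM or more over these 6 libraries were higher in vehicle cells without overlap and 15.4% lower. The median over the enzymes was 35.7 FPKM in vehicle cells and 10.3 FPKM in wild-type tumours. Cyp51 averaged 99.0 ± 40.0 FPKM in vehicle cells and 9.69 ± 3.59 FPKM in wild-type tumours, and Insig1 37.2 ± 7.25 FPKM in vehicle cells and 6.34 ± 0.617 FPKM in wild-type tumours. Pmvk was the enzyme whose values overlapped, at 23.8 ± 5.64 FPKM in vehicle cells and 16.9 ± 3.35 FPKM in wild-type tumours. Of the 13 other members, 6 were higher in vehicle cells without overlap, Insig1 among them, 3 were lower without overlap and 4 overlapped. Abcg1 was among those that overlapped, at 24.7 ± 1.99 FPKM in vehicle cells and 17.5 ± 12.6 FPKM in wild-type tumours. The 3 that were lower were Mylip, Nr1h2 and Abca1. Mylip averaged 5.20 ± 0.899 FPKM in vehicle cells and 28.9 ± 8.40 FPKM in wild-type tumours, Nr1h2 36.4 ± 2.48 FPKM in vehicle cells and 54.2 ± 4.50 FPKM in wild-type tumours, and Abca1 0.066 ± 0.015 FPKM in vehicle cells and 1.02 ± 0.483 FPKM in wild-type tumours. Wild-type tumours also held haemoglobin and other erythroid markers (3540, 16938 and 102055 FPKM in sum), macrophage markers (50.2, 349 and 13.3 FPKM in sum) and neutrophil markers (208, 3082 and 5.52 FPKM in sum). All 3 sums were near 0 ex vivo, and their part in these levels was not tested.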

How the data were processed

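Poly-A RNA of 12 samples was sequenced as strand-specific single reads (dUTP method), per the labels' protocols. The authors deposited FPKM values in 2 tables of 6 samples; tools were CASAVA and TopHat and the build mm9, per the submitters' processing notes. The sources used here do not give the program and annotation behind the FPKM values, or whether strand was used. Columns were matched to samples by name. FPKM are not counts, so log2(FPKM + 1) was tested with limma 3.58.1 in R 4.3.3 (mean trend, two-sided) on genes averaging 1 FPKM or more, each table alone, with Benjamini-Hochberg adjustment over all tested genes and a call under 0.05. With 3 samples a group, the smallest two-sided p of an exact permutation test is 0.1. All members found were reported. Of a symbol on several lines, the line with the highest mean was taken.

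Ex vivo, deviations from the group means were correlated between samples sharing a number (0.467, 0.579 and 0.619 over 10245 genes, other pairs -0.473 to 0.045). Deviations cancel out within a group, so positive values for same-numbered samples push the other pairs negative, and that contrast is partly built in. The numbers were taken as pairs from these values and the shared numbers, and a fit blocked on that number stands beside the unpaired one. The members, lists and tests were chosen with earlier results of these data known. Some genes of the pathway are not analysed or not reported here. The fits were tested on simulated data. Transcript lengths came from GENCODE M21 by symbol. Alternatives were other pseudocounts, filters, scalings and variance models, a length correction, and leaving out libraries or pairs.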

Additional observations from a re-analysis of the deposited data

How the results depend on the processing

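Ex vivo, the number of members called without pairing was 0, where 13 of all genes were called. It was 2 (Pmvk and Stard4) at a mean of at least 5 FPKM, with 188 of 8299 genes called, and 1 (Pmvk) with trimmed mean scaling, with 133 of 10245. With the replicate number as a block it was 16, where 2036 of all 10245 genes were called. Adding median-of-ratios scaling to the block gave 15 (2033 of all genes called), and trimmed mean scaling gave 16 (2059). Quantile normalisation with the block gave 16 (1914), and a pseudocount of 0.1 gave 16 (2040). With the block and the transcript length correction, for which 98.4% of genes had a length, it was 14, where 1684 of 10079 genes were called. Leaving out libraries or pairs gave 0 to 14 calls. Apart from the fewer samples or genes entered, the cause was not tested. The median of the members ran from -0.62 to -0.40 on leaving out a library or pair. In the tumours 0 members were called under every alternative, and the median ran from -0.15 to 0.092 when libraries were left out. No paired analysis was possible in the tumours because the groups share no replicate number. The sign changed in 6 member results ex vivo and 26 in the tumours, none of them called. FPKM carry no read totals, so counting error is unknown, and values near 1 FPKM (Idi1, Abca1, Hsd17b7 in tumours) are the least certain.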
